A study of Mus musculus with 137 samples.

Results

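KO2 knockout macrophages at 24 h after LPS and IFN-gamma were compared with the same kind of cells at 6 h, to measure how far the early response had resolved. The comparison takes 8 libraries at 24 h and 8 at 6 h, 16 of the 137 libraries of the series, chosen by the cohort, genotype and time in their labels, and covers all 10794 genes that passed a filter on low counts. The cells are bone marrow-derived macrophages of mice aged 7 weeks, that were cultured over 7 days in M-CSF (20 ng/ml), plated again and given LPS at 100 ng/ml together with IFN-gamma at 100 ng/ml. Knockout mice carried Beclin1 flox/flox with LysM-Cre+, and WT mice Beclin1 flox/flox with LysM-Cre-, so that both genotypes hold the floxed alleles. Beside the 16 libraries stand 8 of knockout cells at rest (0 h, no LPS or IFN-gamma), WT libraries at 0 h, 6 h and 24 h (8, 8 and 7), and knockout cells of another cohort, KO1, with 3 cultures at each time. Wild-type littermates of a knock-in cohort at 0 h and 6 h entered only an alternative definition of the early response. LysM-Cre is driven from the Lyz2 locus in myeloid cells and deletes Beclin1 only where it is active. Nothing in the labels says that libraries of a group came from separate mice or cultures, so p-values measure the spread between these libraries, which may be technical.

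LPS is sensed by TLR4 with CD14 and MD-2 and acts through the adaptors MyD88 and TRIF, which switch on NF-kB, AP-1 and interferon regulatory factors and with them cytokines, chemokines and type I interferon. IFN-gamma acts through JAK kinases on guanylate-binding proteins, MHC genes and, together with LPS, the inducible nitric oxide synthase. The response is known to be curbed by resynthesis of NF-kB inhibitors, phosphatases, SOCS proteins, proteins that destroy cytokine messages and IL-10. Beclin1 is a core subunit of the lipid kinase complexes that start autophagosomes and sort endosomes.

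Counts in genes ran from 1448218 to 11846188 per library over the 16, with the shallowest at 24 h (replicate 4). Levels below are CPM, counts scaled to library size by TMM. Becn1 (chromosome 11, 101285952 to 101302286, minus strand, GRCm38) stood at 2.11, 4.07 and 4.79 CPM in the lowest, median and highest knockout library at 6 h and 1.7998, 3.46 and 4.58 at 24 h, against 27.7, 37.3 and 49.6 and 18.2, 22.02 and 24.8 in WT, with no overlap between genotypes. Xist was at 0 to 1.38 CPM in knockout and 69.99 to 193 in WT libraries, and the Y-linked Ddx3y at 5.33 to 21.2 and 0 to 0.519, which means that in this cohort sex goes with genotype and their parts cannot be told apart. The 6 h library replicate 7 stood apart on the third principal component of the knockout libraries (0.77, the others -0.27 to 0.17). Macrophage markers were present in every library, with a summed level of 14559 to 19532 CPM at 6 h and 17883 to 22955 at 24 h for 10 of 10 genes. Of 13 neutrophil markers, 9 averaged under 1 CPM, with Mpo, Elane, Retnlg and Prtn3 at 0 in all 16 libraries, and the sum was 49.2 to 73.9 at 6 h and 117 to 164 at 24 h. Monocyte markers summed to 116 to 198 and 35.5 to 45.3, mostly Vcan, a proteoglycan gene that fell by 2.98 on the log2 scale, while Plac8 rose by 3.03. B cell, mast cell and erythroid markers to at most 1.96 in any library. In bulk RNA, fewer cells of a type and less RNA per cell cannot be told apart.

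Knockout macrophages changed broadly between 6 h and 24 h. At an adjusted p under 0.05 (edgeR quasi-likelihood test, Benjamini-Hochberg over all genes tested), 3060 genes were higher at 24 h (28.3%) and 2929 lower (27.1%), together 55.5% of 10794. The changes were mostly moderate: 1222 higher and 1269 lower genes had moved by at least 1 on the log2 scale, 238 and 403 by at least 2, and the median over all genes was 0.04. In 2422 genes (22.4%) the 24 h libraries did not overlap those of 6 h. Without replicate 7 at 6 h and replicate 4 at 24 h, 3039 genes were higher and 2890 lower.

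The early response was defined in WT libraries, which the knockout comparison does not use: 1115 genes had risen by a log2 fold change of at least 2 between 0 h and 6 h, and 887 had fallen by as much (in that comparison 70.8% of genes were called, 32.5% higher and 38.3% lower). In knockout cells the early rise turned back in most of these genes, mostly without returning to rest. Of the 1115 genes, 803 (72.0%) were lower at 24 h than at 6 h, 138 (12.4%) were higher and 174 were not called. Their median log2 fold change from 6 h to 24 h was -1.12, and 600 had fallen by at least 1. Side by side, since these comparisons share libraries, the median was 3.28 at 6 h over rest and 2.32 at 24 h over rest (2.31 with 10 genes at 0 in a whole group set to their bound). At 24 h, 983 genes (88.2%) were still above rest (background 27.7%), 107 were not called against it and 25 were below it. The set was chosen for its rise over rest in WT, so that share is not a test against the background.

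Genes that had fallen early came back in part. Of 887, 528 (59.5%) were higher at 24 h than at 6 h, 44 (4.96%) were lower still and 315 were not called, with a median of 0.99. Their median was -2.55 at 6 h and -1.60 at 24 h relative to rest, and 800 (90.2%) were still below rest (background 30.6%). Of these genes, 468 did not pass the filter on low counts in the knockout libraries of 6 h and 24 h alone and entered through other groups, such as rest, so nothing is read from the share below rest. Among them 40.6% were higher at 24 h than at 6 h, and among the other 419 80.7%. Of the early rise genes, 62 passed only through other groups. With no filter on low counts, 53.8% of the early rise and 39.2% of the early fall genes turned back, over sets of 1615 and 1449 genes.

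**Figure D1:**
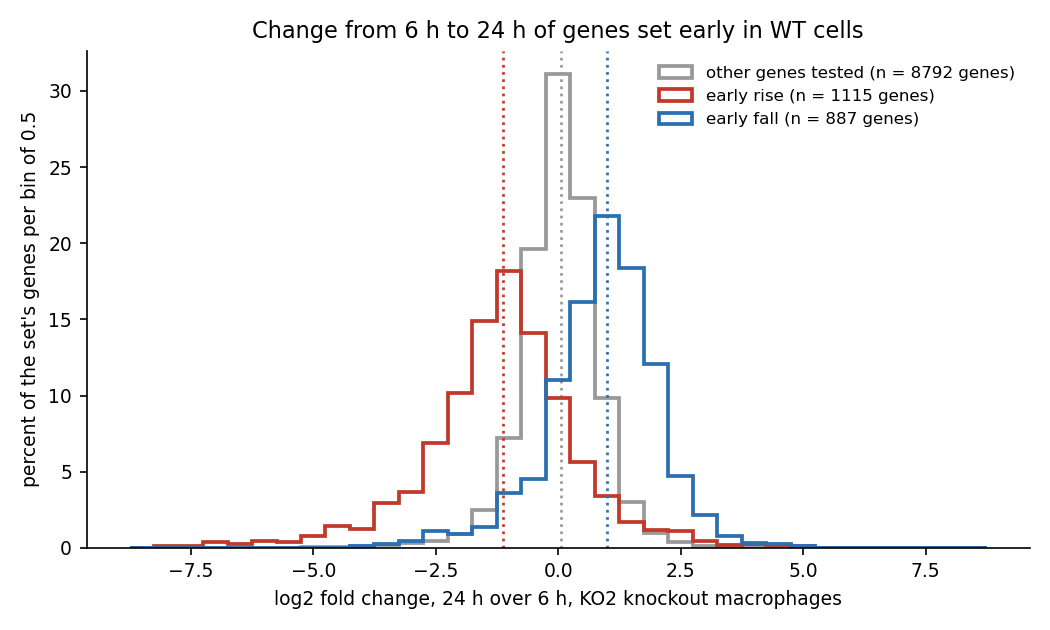
Distribution of the log2 fold change at 24 h over 6 h in KO2 knockout macrophages, as the percent of each set's genes per bin of 0.5, for genes that rose (red) or fell (blue) early in WT cells and for the other genes tested (grey), with dotted lines at the medians. The early rise centres at -1.12 and the early fall at 0.99, on either side of 0, and each set has genes that moved on in the early direction.

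To set promoters beside the changes at both extremes, the 250 bases before the start were read for the 12 genes with the lowest and the 12 with the highest log2 fold change (mean of at least 8 CPM), from RefSeq sequences on GRCm38.p6. The table held 9 of the 12 lowest and 10 of the 12 highest genes, and Plat, Il27, Cd40, Arg1 and Bst1 are named only. The letters searched on both strands were GGGANNTTC (kappa B), GAAANNGAA (the core of the ISRE, the element of interferon regulatory factors), TTCNNNGAA (GAS, the element of the IFN-gamma response), TGACTCA (AP-1), TGACGTCA (CRE), CACGTG (E-box) and CCAAT. The ISRE core and GAS can share letters, and GAS, CRE and the E-box read the same on both strands. Any of these was found in 3 of the 9 genes of the falling side and 7 of the 10 of the rising side, and no gene of either side held kappa B. Genes can have several promoters, so these counts per gene cannot be set directly against the 51.2% of all single promoters with a match. The first 3 genes by rank on each side that held a match are printed, with 1 promoter each and matches in capitals, and those without a match are not shown.

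The 3 of the falling side are Tnc, which encodes the matrix glycoprotein tenascin-C, Apol7c, of the apolipoprotein L family, and Dgka, a diacylglycerol kinase (chr4:64047016-64047265, minus strand, chr15:77533316-77533565, minus strand and chr10:128745085-128745334, minus strand). The 3 of the rising side are Gm5150, Fpr1, which encodes a receptor for formylated peptides, and Cd300lf, an inhibitory receptor (chr3:16006333-16006582, minus strand, chr17:17883940-17884189, minus strand and chr11:115133993-115134242, minus strand).
Tnc: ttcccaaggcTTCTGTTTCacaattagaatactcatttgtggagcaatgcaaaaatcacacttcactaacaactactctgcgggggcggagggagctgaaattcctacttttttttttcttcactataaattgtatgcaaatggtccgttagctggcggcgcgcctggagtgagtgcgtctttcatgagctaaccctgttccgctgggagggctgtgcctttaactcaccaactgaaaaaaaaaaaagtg
Apol7c: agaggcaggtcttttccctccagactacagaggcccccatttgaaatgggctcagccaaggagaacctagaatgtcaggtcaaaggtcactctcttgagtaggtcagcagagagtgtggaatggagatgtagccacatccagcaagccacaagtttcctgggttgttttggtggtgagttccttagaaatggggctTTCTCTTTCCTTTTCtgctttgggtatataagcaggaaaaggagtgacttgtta
Dgka: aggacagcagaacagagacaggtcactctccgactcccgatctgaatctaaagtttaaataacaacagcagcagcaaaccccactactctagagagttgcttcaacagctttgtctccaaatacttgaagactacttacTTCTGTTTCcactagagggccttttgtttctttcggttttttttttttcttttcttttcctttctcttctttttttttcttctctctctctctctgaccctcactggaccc
Gm5150: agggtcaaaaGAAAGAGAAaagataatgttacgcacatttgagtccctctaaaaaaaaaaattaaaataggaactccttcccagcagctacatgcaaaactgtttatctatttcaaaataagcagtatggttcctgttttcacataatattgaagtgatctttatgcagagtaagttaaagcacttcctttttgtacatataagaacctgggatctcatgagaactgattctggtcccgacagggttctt
Fpr1: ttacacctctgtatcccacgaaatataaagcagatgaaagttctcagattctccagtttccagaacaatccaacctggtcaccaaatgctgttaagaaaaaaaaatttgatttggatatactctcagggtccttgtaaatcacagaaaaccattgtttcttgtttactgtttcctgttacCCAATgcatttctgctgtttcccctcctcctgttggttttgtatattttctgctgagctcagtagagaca
Cd300lf: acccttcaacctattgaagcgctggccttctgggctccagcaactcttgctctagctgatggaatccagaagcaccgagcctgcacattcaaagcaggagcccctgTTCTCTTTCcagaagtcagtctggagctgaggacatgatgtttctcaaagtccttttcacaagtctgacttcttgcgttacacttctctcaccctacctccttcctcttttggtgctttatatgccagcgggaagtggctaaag

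Tnc held 1 ISRE core 240 to 232 bases before the start, Dgka 1 at 111 to 103 and Apol7c 2 that overlapped, at 54 to 46 and 48 to 40. An E-box was also held by 1 of these 3 genes, in a promoter that is not printed. Gm5150 held 1 ISRE core at 240 to 232, Cd300lf 1 at 144 to 136, and Fpr1 a CCAAT box at 70 to 66. Over all 32851 promoters of the table, 7.13% held the ISRE core, 3.23% kappa B, 7.02% GAS, 4.46% AP-1, 1.55% the CRE, 6.02% the E-box and 33.85% CCAAT. Among promoters of early rise genes that were lower at 24 h, 9.95% held the ISRE core and 4.78% kappa B (774 promoters of 559 genes). Among those of early rise genes that were higher at 24 h, the shares were 23.16% and 7.37%, with GAS in 15.79% (95 promoters of 86 genes). Promoters of 1 gene share sequence, and a match is letters in a window, not a bound site.

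Cytokine genes fell. Of 24 tested in a list of 28 (Il23a, Lif, Csf2 and Ifnb1 did not pass the filter), 21 were lower at 24 h, 1 was higher and 2 were not called, against 27.1% lower and 28.3% higher over all genes, and the median log2 fold change was -1.89. Relative to rest, the medians of these genes were 5.72 at 6 h and 3.70 at 24 h. The sets of values below are the lowest, median and highest CPM of the 8 libraries of a group, and the ± sign gives the standard error of a log2 fold change. Of the 84 genes given with such levels throughout, 71 had no overlap between the 6 h and the 24 h libraries, and the 13 that overlapped were Becn1, Bst2, Ccl5, Csf3, Cxcl10, Cxcl11, H2-Ab1, H2-Eb1, Il1a, Lipa, Nos2, Ptgs2 and Sqstm1.

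Il12b and Il27, of the IL-12 family, fell further than any other cytokine gene with counts at both times. Il12b, the subunit that IL-12 and IL-23 share, stood at 1236, 1409 and 1853 CPM at 6 h and 8.43, 12.4 and 17.4 at 24 h (-6.81 ± 0.20, adjusted p = 8.7e-36), a 112-fold fall. At rest it was 0, 0 and 0.401, so the 24 h libraries still lay above rest (6.45 ± 0.35). Il27, which encodes a subunit of IL-27, fell from 1039, 1402 and 1958 to 19.4, 24.1 and 35.4 CPM (-5.804 ± 0.15, adjusted p = 1.2e-37). Its partner Ebi3 moved less, by -0.93 ± 0.12, from 67.5, 82.8 and 128 to 33.97, 50.3 and 57.8. Il12a, the other chain of IL-12, fell by 1.67 on the log2 scale from 16.5, 25.4 and 40.8 CPM, and no 24 h library reached the lowest of 6 h. Il33, an alarmin cytokine, was low at 6 h (0.456, 2.497 and 3.42 CPM) and had no count in any of the 8 libraries at 24 h, at least 32.04-fold lower when 24 h is set to 3 counts over the group.

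The central inflammatory cytokines fell but stayed far above rest. Il6 stood at 886, 1458 and 1626 CPM at 6 h and 120.4, 153 and 190.3 at 24 h (-3.17 ± 0.15, adjusted p = 1.4e-25), and at 0, 0.0723 and 0.241 at rest. Tnf fell from 2154, 2776 and 3544 to 553, 670.5 and 750.2 CPM (-2.07 ± 0.12, adjusted p = 8.5e-22), with 8.33, 10.8 and 14.8 at rest. Neither gene had a 24 h library within the range of 6 h or of rest. Il1b, the inflammasome-processed cytokine, moved less, from 10113, 14668 and 17068 to 5587, 6216 and 9465 CPM (-1.04 ± 0.17, adjusted p = 5.3e-07), and remained 11.52 log2 units above rest. Il1a changed least of the 4, with 1531, 2620.4 and 3195 CPM at 6 h and 1229.9, 1691 and 1872 at 24 h (-0.68 ± 0.14, adjusted p = 2.5e-05), and only 3 of 8 libraries at 24 h lay below the 6 h range.

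Most of the other cytokine genes were lower too. Il1rn, the antagonist of the IL-1 receptor, went from 12418, 14314 and 17396 to 2583, 3254 and 4311 CPM (-2.16 ± 0.12). Il10, the anti-inflammatory cytokine, went from 24.6, 37.4 and 61.5 to 9.64, 15.9 and 24.1 (-1.21 ± 0.16). Il15, a growth factor of NK cells, fell by 2.61, Il18 by 1.86, Csf1, the macrophage growth factor, by 2.74 and Tnfsf15 by 3.23, all with no overlap between times. Mif, a cytokine that cells store ready-made, was the member that rose, from 58.9, 64.9 and 81.6 to 137, 187 and 287 CPM (1.54 ± 0.15, adjusted p = 9.8e-14). Csf3, which encodes the neutrophil growth factor G-CSF, was not called, with 4.36, 5.94 and 8.89 CPM at 6 h and 5.42, 7.45 and 12.4 at 24 h (0.37 ± 0.21, adjusted p = 0.12). It had no count in any knockout library at rest.

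**Figure D2:**
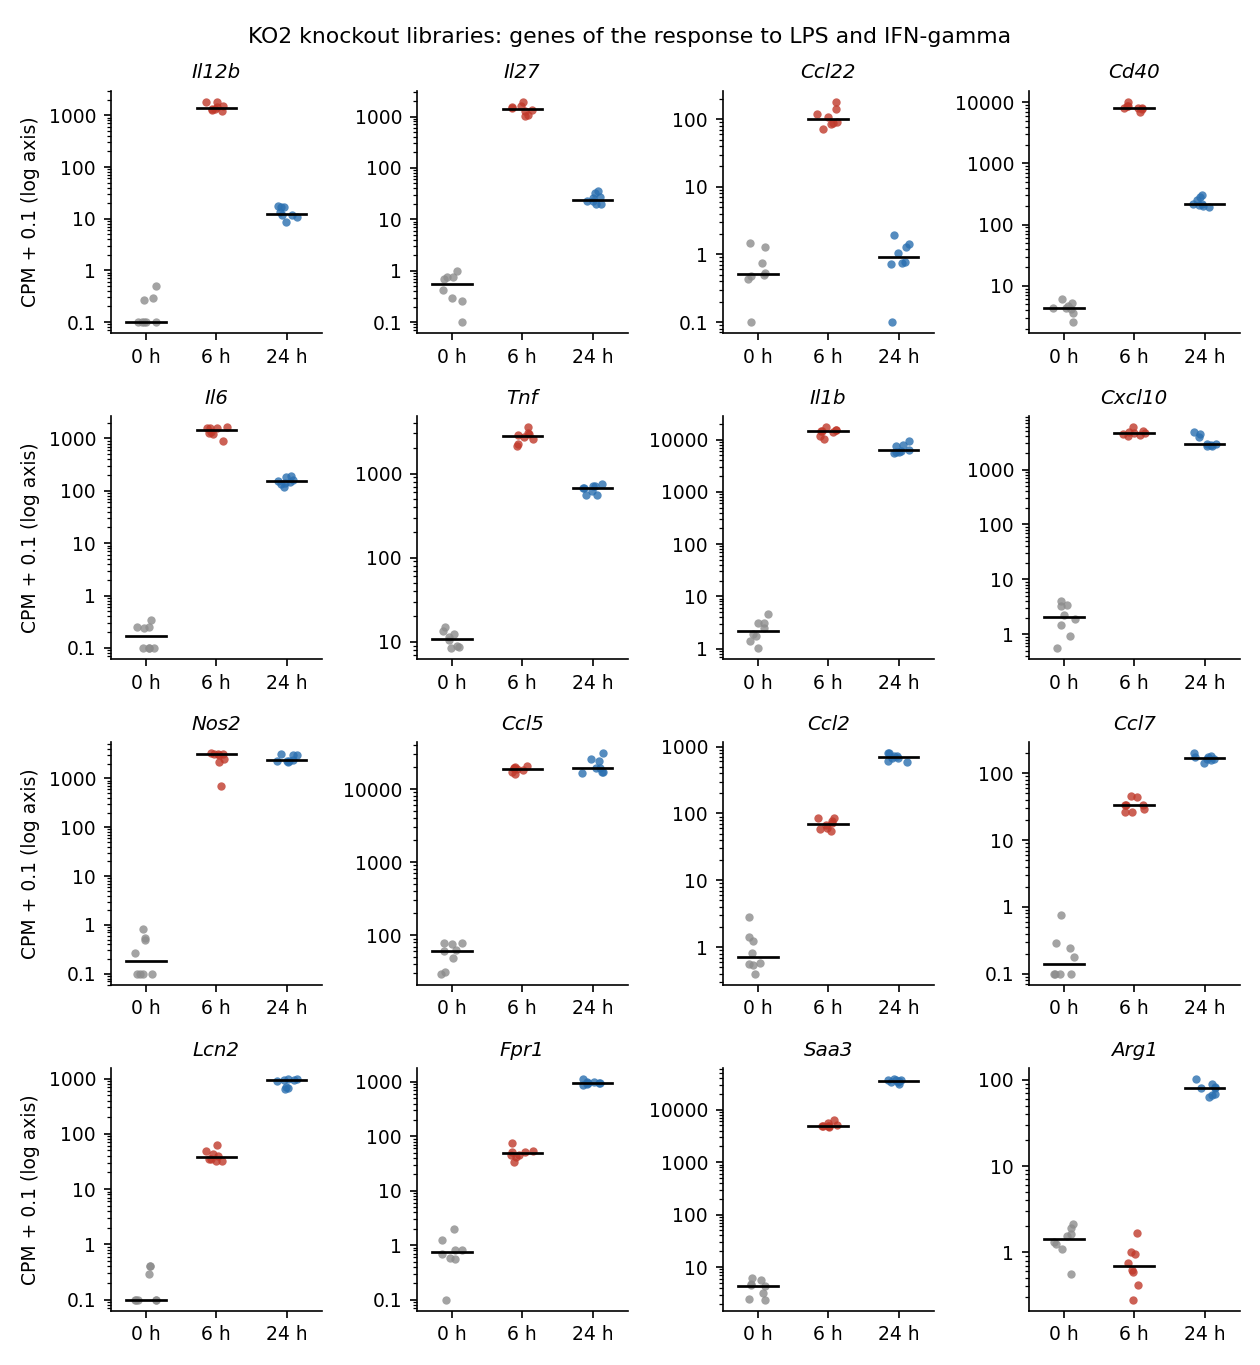
CPM + 0.1 on a log axis in each KO2 knockout library at 0 h (grey), 6 h (red) and 24 h (blue) for 16 genes of the response to LPS and IFN-gamma, with 8 libraries per time, a black line at the median and an axis range of its own in each panel. From 6 h to 24 h the top row falls far (Il12b, -6.81), the second row less (Tnf, -2.07), Nos2 and Ccl5 were not called (-0.04 and 0.18), and Ccl2, Ccl7 and the bottom row rise (Lcn2, 4.36).

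Most chemokines fell. Of 21 tested, 16 were lower and 4 higher at 24 h, with a median of -1.14, while Ccl17, Ccl24 and Ppbp did not pass the filter. Ccl22, which draws regulatory T cells, went from 71.5, 99.7 and 182 CPM at 6 h to 0, 0.803 and 1.81 at 24 h (-6.83 ± 0.26, adjusted p = 1.5e-30), against 0, 0.418 and 1.39 at rest, from which 24 h was not called different (adjusted p = 0.16). The neutrophil attractants Cxcl1 and Cxcl2 fell by 2.98 and 2.37, and Cxcl2 still stood at 189.6, 215 and 232 CPM against 1.20, 1.85 and 3.58 at rest. Ccl3 and Ccl4, which attract monocytes and T cells, fell by 1.69 and 0.57. Ccl9 fell below rest, with 279, 364 and 427 CPM at 0 h, 2046, 2566 and 3087 at 6 h and 106, 133 and 151 at 24 h (-4.30 ± 0.13).

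The interferon-induced ligands of CXCR3 did not move alike. Cxcl9 fell from 2444, 3051 and 3549 to 245, 297 and 475 CPM (-3.19 ± 0.14, adjusted p = 1.0e-27). Cxcl10 was at 4154, 4587 and 5848 and 2632, 2899 and 4763 (-0.47 ± 0.16, adjusted p = 0.012) and Cxcl11 at 156, 171 and 249.5 and 117, 138 and 165 (-0.38 ± 0.11), 2 smaller falls. With libraries of different numbers within a group summed into sets, Cxcl10 was not called (-0.38, adjusted p = 0.13). Ccl5, an LPS and interferon target, was not called, at 16292, 18928 and 20835 and 16544, 19562 and 30959.8 CPM (0.18 ± 0.16, adjusted p = 0.32). The monocyte attractants of CCR2 went up: Ccl2 from 54.1, 69.3 and 85.7 to 581, 697 and 794 CPM (3.32 ± 0.15, adjusted p = 1.2e-27) and Ccl7 from 25.9, 33.3 and 45.7 to 142, 171 and 199.8 (2.31 ± 0.13, adjusted p = 4.1e-23), the highest 6 h library of each being far under the lowest of 24 h. Ccl12, a related attractant, rose by 0.47. Cxcl5, a neutrophil attractant, was called higher by 0.77, but not without replicate 2, 5 or 6 at 6 h (0.72, 0.63 and 0.69, adjusted p = 0.061, 0.098 and 0.068).

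Among 30 receptors and adaptors tested, 8 were higher and 15 lower at 24 h, against 28.3% and 27.1% over all genes. The median log2 fold change was -0.34. Cd14, the co-receptor that hands LPS to TLR4, fell from 10429.9, 12211 and 14840.1 to 2305, 2683 and 5162 CPM (-1.88 ± 0.16, adjusted p = 9.1e-16), and Tlr4 itself was not called (0.45 ± 0.20, adjusted p = 0.051; adjusted p = 0.01 without replicate 6 at 6 h). Myd88 fell by 1.55 and Stat3 by 1.44. Irak3, the kinase-like protein that blocks signalling from MyD88, rose from 47.9, 84.0 and 89.4 to 165, 187 and 199 CPM (1.25 ± 0.11, adjusted p = 1.3e-15). Ticam2, the bridging adaptor of TRIF, rose as well (1.04 ± 0.13). Tlr13, a sensor of bacterial RNA, rose by 2.12 ± 0.19, but every 24 h library stayed below every library at rest.

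Of 22 NF-kB genes, 17 were lower and none higher at 24 h by edgeR (5 not called; 0 higher at an unadjusted p under 0.05 and 0 by DESeq2), with a median of -1.34. Nfkb2, a subunit, fell from 719, 966 and 1179.7 to 109, 128 and 143 CPM (-2.95 ± 0.10, adjusted p = 2.0e-32). The inhibitors that NF-kB itself induces fell with it: Nfkbie by 2.89, Nfkbia by 1.28, Tnfaip3, the deubiquitinase A20, by 2.98, and Tnip3, a partner of A20, from 1336, 1529 and 2086 to 103, 122 and 130.2 CPM (-3.72 ± 0.10). All 4 remained above rest at 24 h (log2 fold changes of 3.001, 3.71, 4.03 and 1.33 against 0 h).

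Feedback inhibitors moved both ways, with 12 of 22 lower, 5 higher and a median of -1.02. The MAP kinase phosphatase genes parted: Dusp2 fell from 139.6, 339 and 459 to 11.4, 15.4 and 16.9 CPM (-4.40 ± 0.19) and Dusp1 from 562, 806 and 985 to 131, 202 and 254 (-1.99 ± 0.11), while Dusp6, which acts on ERK, rose from 6.16, 8.03 and 10.7 to 50.8, 62.7 and 73.6 (2.94 ± 0.12, adjusted p = 4.2e-29). In all 3 the 24 h libraries did not overlap those of 6 h. Socs3, which curbs IL-6 receptor signalling, fell by 1.17, and Socs1, which curbs interferon signalling, rose by 0.78. Of 21 immediate-early factors, 13 were lower and 4 higher. Ier2 and the nuclear receptor Nr4a1 fell by 1.96 and 3.55, to levels below rest (-0.32 and -3.42 against 0 h). Jun, an AP-1 subunit, rose from 9.24, 11.1 and 15.3 to 46.1, 54.5 and 69.4 CPM (2.23 ± 0.13, adjusted p = 9.2e-23), to a level not called against rest (58.3, 65.3 and 79.0 at 0 h, adjusted p = 0.052). Egr1 rose by 3.27 from a median of 0.427 CPM, and Atf3, a repressor of LPS targets, by 0.63.

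Type I interferon-stimulated genes fell while part of the IFN-gamma programme held or rose. Of 39 type I genes, 30 were lower and 1 higher, with a median of -1.09 and of 3.42 against rest. Ifih1, the RNA sensor MDA5, fell from 368, 924 and 1166 to 113, 123 and 144 CPM (-2.80 ± 0.16, adjusted p = 1.7e-22), Ifi205 by 2.95, Isg15, a ubiquitin-like modifier, by 2.23 and the GTPase gene Mx2 by 1.81. Bst2, the tetherin that holds back budding viruses, was the member that rose (0.63 ± 0.13), with 712, 840.3 and 1064 CPM at 6 h and 999, 1183 and 1789 at 24 h, which overlapped.

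Of 33 IFN-gamma targets, 16 were higher and 11 lower, with a median of 0.26, and relative to rest the medians were 6.80 at 6 h and 6.89 at 24 h. The guanylate-binding proteins, which attack vacuoles that hold microbes, moved in both directions. Gbp3 fell from 1211, 2131 and 2514 to 649, 722 and 1030.0 CPM (-1.32 ± 0.13), whereas Gbp8 rose from 8.18, 12.4 and 13.3 to 54.7, 73.0 and 116 (2.69 ± 0.15, adjusted p = 6.4e-23) and Gbp10 from 2.96, 7.63 and 9.61 to 27.6, 44.3 and 74.6 (2.71 ± 0.19). Gbp and Tgtp genes have close copies, among which reads may be split or lost. Irf8, a transcription factor of myeloid cells, fell from 3151, 4211 and 5606 to 356, 398 and 624.6 (-3.22 ± 0.13), and Irg1, which makes itaconate, fell by 1.33. Irf1 was not called (-0.07 ± 0.11, adjusted p = 0.60).

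Antigen presentation by MHC class I went up in 11 of 21 genes and down in 5 (median 0.27). The class I heavy chain genes H2-T22 and H2-Q6 rose by 1.45 and 1.403, and Erap1, which trims peptides, by 1.15, while the peptide transporter gene Tap1 fell by 0.75. In the class II list, 7 of 13 were lower and 4 higher, with the co-stimulatory genes lower and the peptide-binding chains higher. Cd40, the receptor for T cell help, fell from 6864, 8096 and 10308 to 192, 216 and 301 CPM (-5.14 ± 0.14, adjusted p = 1.2e-37), a 35.4-fold fall. Cd83 fell from 974, 1286 and 1799 to 37.1, 52.96 and 75.9 (-4.67 ± 0.14), Icosl by 4.07, Cd86 by 1.23 and Cd80 by 1.89. H2-Ab1 was at 1267, 1880.4 and 2385 and 2357, 2521 and 2822 CPM (0.47 ± 0.16, adjusted p = 0.01) and H2-Eb1 at 77.6, 120.6 and 180.5 and 138, 164 and 199 (0.45 ± 0.15), higher at 24 h with much overlap. Ciita, the master regulator of class II genes, fell by 0.76, and H2-Oa, a subunit of a brake on class II peptide loading, rose by 2.74. Dendritic cell markers summed to 82.3 to 149 CPM at 6 h and 33.3 to 46.98 at 24 h, and their part in these changes was not tested.

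At 24 h the transcripts of both competing enzymes of arginine use were present, while protein and presence in the same cells were not measured. Arg1, which turns arginine into ornithine and urea, was near 0 at rest and at 6 h (0.464, 1.33 and 2.05 and 0.181, 0.584 and 1.57 CPM) and reached 62.7, 80.5 and 102 at 24 h. Its log2 fold change of 6.95 ± 0.21 (adjusted p = 3.3e-35, 123-fold) was the highest of the genes that averaged at least 8 CPM. Nos2, which makes nitric oxide from the same substrate, stood at 0, 0.0819 and 0.731 CPM at rest, 683, 3088 and 3261 at 6 h and 2148, 2326 and 3099 at 24 h, and was not called (-0.04 ± 0.19, adjusted p = 0.87). The lowest 6 h value of Nos2 is that of replicate 7, and without it the log2 fold change was -0.18 (adjusted p = 0.31).

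Over the list of 18 tested genes, 9 were higher and 5 lower, against 28.3% and 27.1% over all genes. Slc7a2, which imports arginine, rose by 0.51, Gch1, which makes the cofactor of nitric oxide synthase, fell by 1.8005 and Odc1, which makes polyamines from ornithine, fell by 2.06. Ptgs2, the inducible cyclooxygenase, was at 816, 3126 and 5222 CPM at 6 h and 377, 729.9 and 901 at 24 h (-2.11 ± 0.24, adjusted p = 2.9e-11), overlapping through replicate 7 at 6 h. Hpgds, which makes prostaglandin D, rose from 10.48, 13.97 and 18.5 to 45.5, 52.96 and 74.4 CPM (1.94 ± 0.12), and Lta4h, which makes leukotriene B, by 1.69.

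A set of early rise genes rose on to 24 h. Lcn2, which binds bacterial siderophores, was at 0, 0 and 0.309 CPM at rest, 31.7, 37.8 and 62.0 at 6 h and 655, 925 and 976 at 24 h (4.36 ± 0.15, adjusted p = 2.3e-32, 20.6-fold). Fpr1 went from 34.3, 48.9 and 74.98 to 890.1, 961 and 1123 CPM (4.29 ± 0.15) and its relative Fpr2 from 78.3, 83.0 and 126 to 269.5, 313 and 361 (1.78 ± 0.12). Slpi, a protease inhibitor that dampens macrophages, went from 6.62, 10.7 and 13.99 to 126, 167 and 207 (3.95 ± 0.16), and Bst1, an ectoenzyme that splits NAD, from 8.12, 11.6 and 15.95 to 149, 160.3 and 167 (3.80 ± 0.14). The acute phase gene Saa3 rose from 4750.3, 4983 and 6462 to 30482, 35550.0 and 38197 (2.75 ± 0.14). In all 6 genes every 24 h library stood above every 6 h library. Of 21 antimicrobial genes tested, 8 were higher and 7 lower, against 28.3% and 27.1% over all genes, with a median of 0.05. Slc11a1, the phagosomal metal transporter NRAMP1, was among the higher ones (2.37 ± 0.11). S100a8, which is abundant in neutrophils, rose by 1.61 and Mmp8, the neutrophil collagenase, by 2.49. Both belong to the neutrophil marker sum given above, while the granule genes Mpo, Elane and Prtn3 had no count in the 16 libraries.

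Several of the other genes among the 12 highest encode receptors of myeloid cells. Siglece, an inhibitory receptor for sialic acid, went from 0.213, 0.852 and 1.72 to 17.04, 23.5 and 35.3 CPM (4.73 ± 0.26, adjusted p = 3.2e-23). Cd300lf went from 1.49, 2.60 and 3.44 to 24.1, 49.5 and 59.5 (4.25 ± 0.16), with 27.5, 30.6 and 34.9 at rest. Gm5150 and Sirpb1c, both of the SIRP family, rose by 4.43 and 4.13, Slamf6 by 3.92 and Arhgap27, a GTPase-activating protein gene, by 4.13. Egln3, a prolyl hydroxylase induced by hypoxia, rose from 0.640, 1.96 and 4.30 to 17.5, 25.5 and 40.2 CPM (3.62 ± 0.22). The 12 lowest genes also held Plat (-6.60), which activates plasminogen, Asap3 (-6.21), S100a4 (-5.22), Shisa3 (-5.08), and Lck (-4.93), with Tnc (-6.97), Apol7c (-6.44) and Dgka (-5.69). Lck, a kinase of T cells, was at 11.6, 14.9 and 25.3 CPM at 6 h, when the other 10 T and NK cell markers each averaged under 1 CPM.

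Genes of the endoplasmic reticulum rose, with the largest share of higher genes among the lists of functions. Of 23 chaperones and regulators of the unfolded protein response, 18 were higher, 1 was lower and 4 were not called, with a median of 1.17. Against rest, the medians were -0.33 at 6 h and 0.83 at 24 h. P4hb, a protein disulfide isomerase, rose from 107, 143 and 213 to 663, 883 and 1053 CPM (2.65 ± 0.12, adjusted p = 3.0e-26), with 225, 254 and 316 at rest. Pdia3 rose from 171, 206 and 261 to 719, 797 and 914 (1.96 ± 0.10) and Hsp90b1, the chaperone GRP94, from 96.8, 111 and 122 to 320.1, 362 and 427 (1.75 ± 0.09). The 24 h libraries of these 3 genes did not overlap those of 6 h or of rest. Edem1, which directs misfolded proteins to degradation, was the member that fell (-1.03 ± 0.16), and Hspa5, the chaperone BiP, was not called (-0.21 ± 0.11, adjusted p = 0.10).

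Integrated stress genes were mixed, with 9 of 18 higher and 4 lower. Psat1, of serine synthesis, fell from 165, 224 and 317 to 11.8, 14.9 and 17.2 CPM (-3.92 ± 0.16), whereas Ddit3, the factor CHOP, rose by 1.07, Sars, a tRNA synthetase, by 1.55 and Sesn2 by 1.79. Of 19 heat shock genes, 8 were higher and 3 lower, against 28.3% and 27.1% over all genes. Among 25 NRF2 targets, 9 were higher and 10 lower. Hmox1, which breaks down heme, rose from 1335, 1603 and 2357 to 5644, 6838 and 7932 CPM (2.02 ± 0.12, adjusted p = 7.4e-22), and G6pdx rose by 1.38, while Nfe2l2, the gene of NRF2 itself, fell by 1.74.

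Genes of macrophage identity had no clear direction as a list, with 8 of 23 higher and 7 lower, against 28.3% and 27.1% over all genes. Emr1, which encodes F4/80, rose by 2.17, Itgam, the integrin CD11b, by 1.87 (38.1, 92.8 and 127 CPM at 6 h, 257, 324 and 389 at 24 h) and Csf1r, the M-CSF receptor, by 1.23. Cd68 fell by 1.26 and Sfpi1, the gene of PU.1, by 1.04. Lyz2, the locus of the Cre driver, was not called (0.14 ± 0.12, adjusted p = 0.30).

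Apart from Arg1, markers of alternative activation did not rise as a list: 12 of 18 were lower and 3 higher, with a median of -1.05, and Chil3, Retnla, Cd163, Clec10a and Alox15 did not pass the filter. Mrc1, the mannose receptor, fell from 2.70, 5.47 and 8.18 to 0, 0.258 and 0.767 CPM (-3.74 ± 0.38), with 5.06, 6.65 and 10.49 at rest. Trem2, a lipid receptor, fell from 290.3, 363 and 458 to 53.95, 70.4 and 87.0 (-2.35 ± 0.11), with 778, 969 and 1247 at rest, so it moved further from rest. Axl, a receptor for dying cells, fell by 3.31, its ligand Gas6 by 1.93, Anxa1, the annexin that acts through formyl peptide receptors, by 3.59 and Igf1 by 2.04. The 3 that rose were Fpr2, Stab1, a scavenger receptor (2.24 ± 0.11), and Cd36, a receptor for oxidised lipids (1.02 ± 0.14). Among 18 phagocytic receptors, 9 were higher and 7 lower, against 28.3% and 27.1% over all genes. Marco, a scavenger receptor for bacteria, rose from 18.9997, 39.4 and 71.1 to 249, 304 and 624 CPM (3.17 ± 0.23) and Clec4n, the fungal receptor dectin-2, from 74.2, 92.5 and 116 to 396, 414 and 495 (2.19 ± 0.11), while Olr1 and Cd5l fell by 4.30 and 3.75.

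Of 36 genes of the autophagy machinery, 18 were higher and 5 lower at 24 h, against 28.3% and 27.1% over all genes. Their median was 0.34. Becn1 was not called (-0.14 ± 0.19, adjusted p = 0.56). Atg7, the enzyme that activates ubiquitin-like autophagy proteins, rose from 6.96, 7.31 and 13.5 to 18.2, 21.3 and 26.8 CPM (1.41 ± 0.13), against 36.4, 43.9 and 52.1 at rest. Atg10 rose by 1.48 and Vmp1, which works at the site where autophagosomes form, from 112, 135 and 143 to 249, 271 and 332 (1.09 ± 0.07, adjusted p = 3.8e-19). Atg16l1, which places LC3 on membranes, fell by 0.95. Among cargo receptors, 7 of 15 were higher and 3 lower. Optn and Tax1bp1 fell by 2.48 and 1.15, Sqstm1, the receptor that autophagy itself degrades, fell from 5424, 8014 and 8969.9 to 3722, 4478 and 6196 CPM with overlap (-0.66 ± 0.14, adjusted p = 1.0e-04), and the mitophagy receptors Bnip3l and Bnip3 rose by 1.12 and 0.61.

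Lysosomal genes moved little as a list, with 16 of 35 higher and 8 lower, against 28.3% and 27.1% over all genes. Their median was 0.14, and against rest it was -0.66 at 6 h and -0.48 at 24 h. At 24 h, 21 of them were below rest and 6 above. Tfeb, their master regulator, rose from 1.28, 1.85 and 4.67 to 5.66, 7.45 and 10.2 CPM (1.89 ± 0.20) and stayed below rest (12.4, 15.6 and 19.4). Neu1, a sialidase, rose from 30.5, 36.7 and 44.6 to 84.9, 92.8 and 100.6 (1.33 ± 0.09) and was not called against rest (adjusted p = 0.29). Lipa, which frees cholesterol from its esters, did not recover, with 2450.2, 3235 and 4479 CPM at rest, 328, 567 and 719 at 6 h and 307, 371 and 401 at 24 h (-0.55 ± 0.14), the last with overlap.

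**Figure D3:**
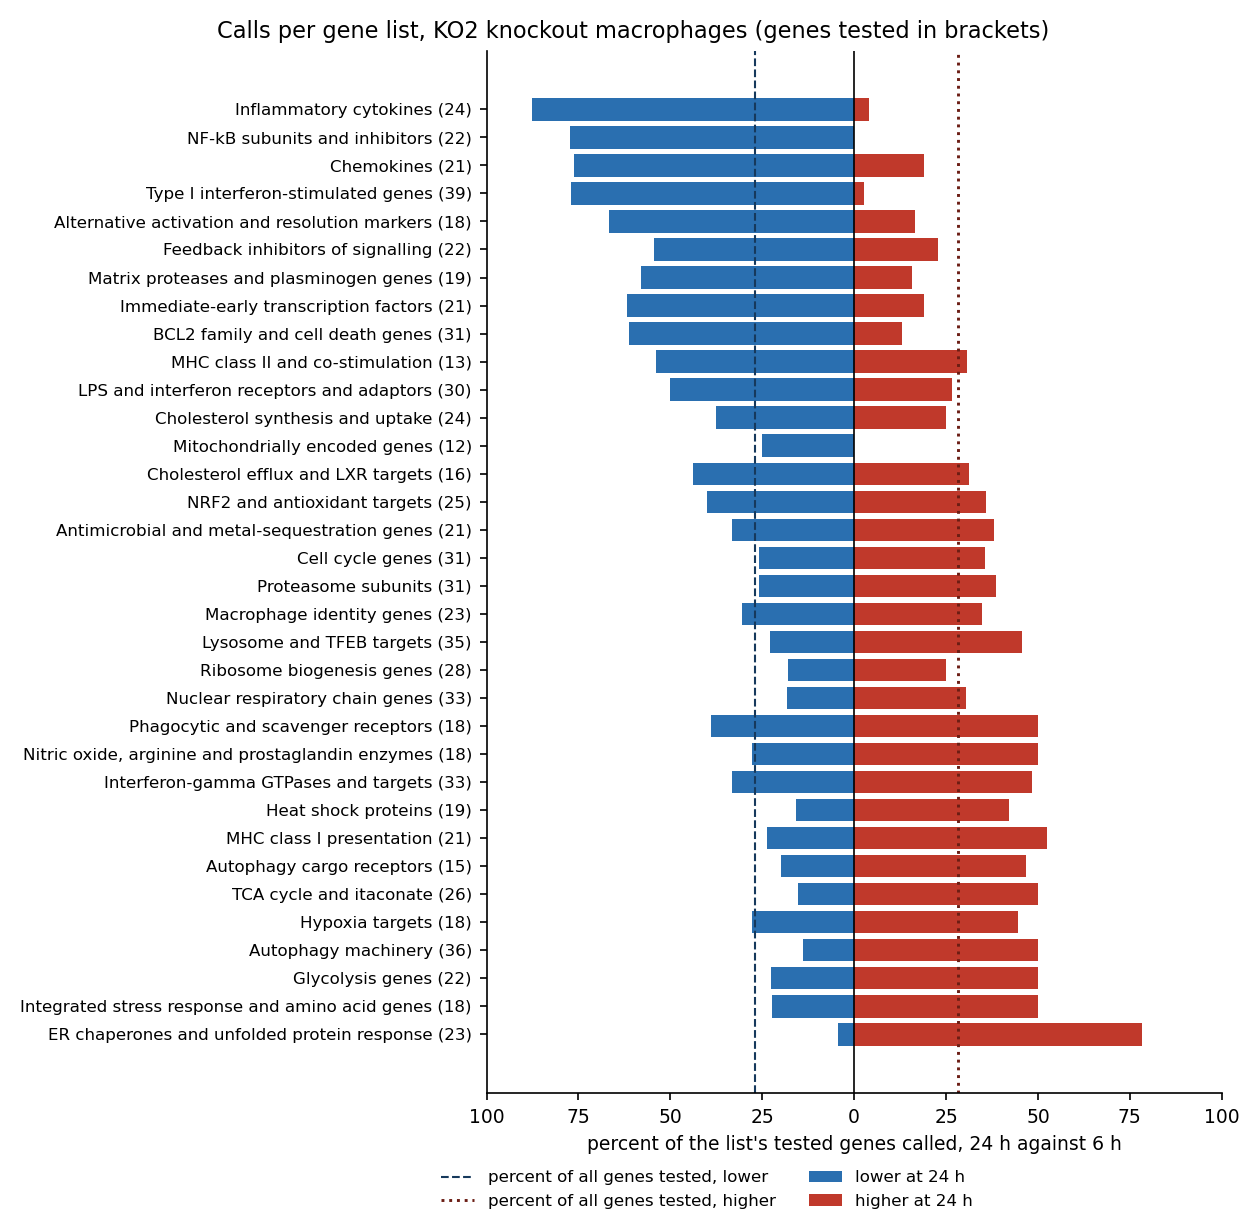
Percent of each list's tested genes called lower (blue, to the left) or higher (red, to the right) at 24 h than at 6 h in KO2 knockout macrophages, ordered by the list's median log2 fold change, with the number of genes tested in brackets and broken lines at the percent over all genes tested (27.1% lower, 28.3% higher). Cytokines, NF-kB genes, chemokines and type I interferon-stimulated genes stand at the top with medians of -1.89, -1.34, -1.14 and -1.09, and ER chaperones at the bottom with 1.17.

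Lists of metabolic genes, apart from the mitochondrially encoded ones, held changes in both directions. Of 22 glycolysis genes, 11 were higher and 5 lower (median 0.41). Gpi1, the second enzyme of the pathway, rose from 124, 155 and 194 to 424, 548 and 811 CPM (1.96 ± 0.12), Pkm, pyruvate kinase, by 1.11 and Gapdh by 1.02, while the glucose transporter gene Slc2a1 and the phosphofructokinase gene Pfkp fell by 0.75 and 1.83. In the TCA cycle list 13 of 26 were higher and 4 lower, with Mdh2, Sdhb and Sdhd up by 0.87, 0.81 and 0.80. Of 33 nuclear genes of the respiratory chain, 10 were higher and 6 lower, against 28.3% and 27.1% over all genes. Of 12 mitochondrially encoded genes 3 were lower and none higher by edgeR (0 higher at an unadjusted p under 0.05 and 0 by DESeq2). In the list of cholesterol synthesis and uptake 6 of 24 were higher and 9 lower, and in that of efflux 5 of 16 and 7. Abca1, the cholesterol exporter, rose from 11.4, 23.4 and 36.99 to 55.3, 84.5 and 111 CPM (1.82 ± 0.17), a level not called against rest (adjusted p = 0.53), whereas Ch25h, which makes an antiviral oxysterol, fell from 82.5, 124 and 182 to 12.3, 19.3 and 27.8 (-2.79 ± 0.15). Of 18 hypoxia targets 8 were higher and 5 lower, with a median of 0.31. P4ha2, a collagen prolyl hydroxylase, rose by 2.81 and Ero1l, an oxidase of the endoplasmic reticulum, by 1.87, while Hif1a itself fell by 1.09.

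Most genes of the cell death list and of the matrix list were lower at 24 h. In the list of BCL2 family and cell death genes, 19 of 31 were lower, 4 higher and 8 not called (median -0.58). The lower genes included Bcl2a1d, a survival factor induced by NF-kB that has close copies (-3.40 ± 0.20), Bcl2l11, the death factor BIM (-1.88 ± 0.12), and Pycard, the inflammasome adaptor (-1.83 ± 0.11). In the matrix list 11 of 19 were lower, 3 higher and 5 not called. Mmp13, a collagenase, fell from 1785, 5001 and 5654 to 125, 153 and 236 CPM (-4.83 ± 0.18, adjusted p = 1.6e-30), and Spp1, osteopontin, from 780.2, 934 and 1453 to 77.3, 85.4 and 123 (-3.40 ± 0.17), below its 868, 1199 and 2412 at rest. Thbs1, a matrix glycoprotein, rose from 378, 661 and 1174 to 2265, 4132 and 4713 (2.48 ± 0.18). Of 31 cell cycle genes 11 were higher and 8 lower, of 31 proteasome subunits 12 and 8, and of 28 genes of ribosome biogenesis 7 and 5. Over all genes, 28.3% were higher and 27.1% lower. Among the 8 lower cell cycle genes, Ccnd2, a cyclin, fell by 4.61 and Cdkn1a, the cell cycle inhibitor p21, by 2.48.

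Of the 887 early fall genes, only 7 were called above rest at 24 h and 800 below it. Some of the genes with the largest rises went past rest. Por, the electron donor of cytochrome P450 enzymes, was at 364, 379.5 and 404 CPM at rest, 42.9, 50.1 and 70.9 at 6 h and 554, 596 and 693 at 24 h (3.55 ± 0.10, adjusted p = 6.7e-36), and ended 0.68 above rest. Tnfrsf26 rose by 3.56 and Arhgap27 by 4.13, also to above rest (0.68 and 0.61). Cerk, a ceramide kinase, rose from 0, 1.22 and 2.08 to 13.6, 15.3 and 18.5 CPM (3.60 ± 0.23) but stayed under the 45.6, 64.3 and 85.3 of rest. Lrp1, a receptor for lipoproteins and protease complexes, lay between as well, with 246, 323 and 405, 28.7, 34.3 and 46.2 and 91.1, 126 and 146 CPM at the 3 times (1.73 ± 0.12). Nfam1 and Dock8 rose by 3.18 and 3.12 and stayed -1.18 and -0.92 from rest.

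Other early fall genes fell on. Rgs2, an inhibitor of G protein signalling, was at 118, 147 and 178 CPM at rest, 8.54, 13.6 and 22.6 at 6 h and 1.12, 2.66 and 3.65 at 24 h (-2.55 ± 0.21, adjusted p = 3.8e-16). Syngr1, a vesicle protein gene, fell by a further 2.35 and Rgs10 by 0.88, to -3.995 and -3.27 against rest. S100a4, which was not in the early fall set, fell late, with 146, 199.97 and 246 CPM at rest, 103, 127 and 169.7 at 6 h and 0.729, 3.15 and 6.99 at 24 h (-5.22 ± 0.19).

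**Figure D4:**
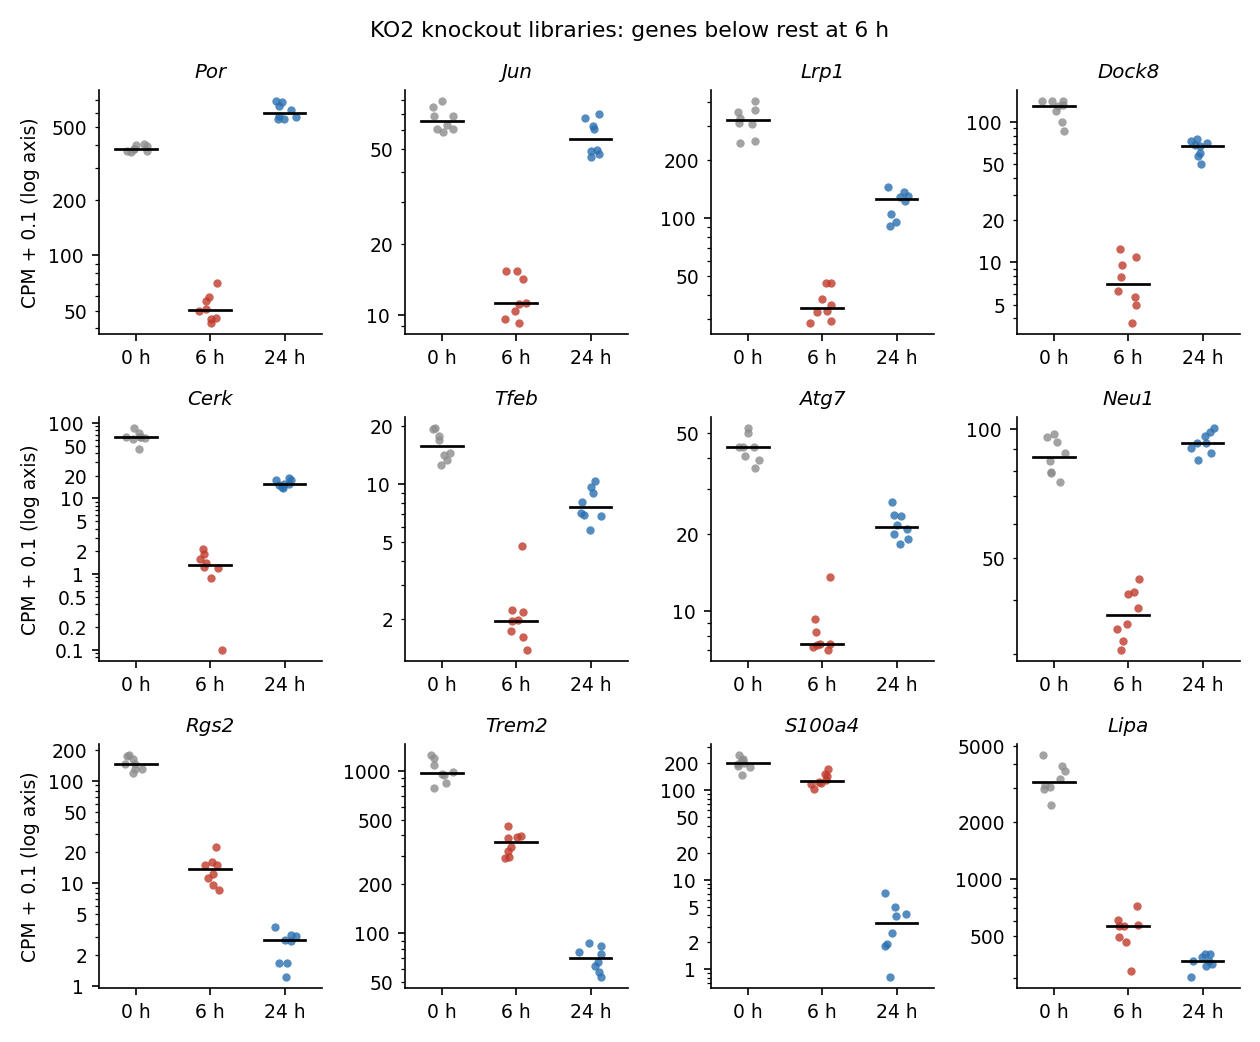
CPM + 0.1 on a log axis in each KO2 knockout library at 0 h (grey), 6 h (red) and 24 h (blue) for 12 genes below rest at 6 h, with 8 libraries per time, a black line at the median and an axis range of its own in each panel. Por (3.55), Jun (2.23) and Neu1 (1.33) reached levels above rest or not called against it, Lrp1, Dock8, Cerk, Tfeb and Atg7 came back in part, and the bottom row fell further, Rgs2 by 2.55 on the log2 scale.

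The change from 6 h to 24 h differed between knockout and WT cells in 1056 of 10794 genes (9.78%), by a test of the difference itself, in a cohort where sex goes with genotype. In 600 genes the knockout change was the more positive and in 456 the more negative. The largest class was a smaller fall in knockout cells (331 genes), followed by a smaller rise (181), opposite signs with the knockout up (172) or down (144), a larger fall (131) and a larger rise (97). Among early rise genes, whose choice used the same WT libraries at 6 h, 210 differed upward and 82 downward, and the median change was -1.12 in knockout and -1.26 in WT. The difference counts were 592 and 442 genes without the 2 libraries named above.

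Where cytokine and chemokine genes differed between genotypes, the knockout change was mostly the more positive, which covers smaller falls as well as larger rises. Of 24 cytokine genes 12 differed upward and 3 downward (medians of the change -1.89 in knockout and -2.41 in WT), and of 21 chemokines 8 upward and none downward by edgeR (0 downward at an unadjusted p under 0.05 and 0 by DESeq2), against 5.56% upward and 4.22% downward over all genes. Il10 showed one of the larger gaps: in WT it fell from 21.8, 26.4 and 32.9 to 0.504, 1.24 and 3.001 CPM (-4.44 ± 0.23), in knockout only by the 1.21 given above, a difference of 3.23 ± 0.29 (adjusted p = 1.1e-12). Ccl4 in WT fell from 273, 324 and 431 to 25.9, 37.4 and 47.6 CPM (-3.16 ± 0.13), and in knockout from 288, 372 and 443 to 216, 245 and 276 (-0.57 ± 0.11), a difference of 2.59 ± 0.17 (adjusted p = 1.1e-17). Il12b fell by 8.99 in WT and 6.81 in knockout, Il6 by 5.16 and 3.17, and Il1a by 2.60 and 0.68, differences of 2.18 ± 0.26, 1.996 ± 0.21 and 1.92 ± 0.20. Csf3 fell by 3.52 in WT and was 0.37 in knockout (difference 3.90 ± 0.35, adjusted p = 2.8e-11), with 0.185, 0.674 and 1.4003 CPM in WT and 5.42, 7.45 and 12.4 in knockout at 24 h.

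Late risers differed too. Ccl7 was not called in WT (-0.02 ± 0.13) and rose in knockout (2.31 ± 0.13), a difference of 2.33 ± 0.18 (adjusted p = 8.9e-15). Its WT levels were 71.1, 88.0 and 116 CPM at 6 h and 70.5, 91.1 and 112 at 24 h. Lcn2 rose by 2.04 in WT and 4.36 in knockout, and Hpgds by 0.44 and 1.94 (differences 2.32 ± 0.19 and 1.501 ± 0.17). In WT, Lcn2 was at 68.8, 73.5 and 95.0 CPM at 6 h and 207, 334 and 412 at 24 h. For Ccl7 and Lcn2 the knockout libraries were below WT at 6 h and above WT at 24 h, so both times enter the difference. Serp1, which stabilises proteins in the endoplasmic reticulum, fell in WT (-0.87 ± 0.12) and rose in knockout (1.02 ± 0.11), from 641, 998 and 1228 to 1707, 2021 and 2168 CPM a difference of 1.89 ± 0.16. Fcgr2b, the inhibitory Fc receptor, fell in WT (-1.58 ± 0.11) and was not called in knockout (0.24 ± 0.11, adjusted p = 0.052, and 0.0066 without the 2 libraries named above), with a difference of 1.82 ± 0.15. In the other direction, Ly6a, an interferon target, rose by 3.14 in WT and 1.07 in knockout (difference -2.07 ± 0.23, adjusted p = 5.9e-10), Aif1 by 3.02 and 1.42, and Selm by 3.70 and 1.37 (differences -1.59 ± 0.19 and -2.33 ± 0.28). Cd74, the class II invariant chain, rose in WT (1.31 ± 0.25) and was not called in knockout (-0.43 ± 0.24, difference -1.74 ± 0.34). For Arg1 and Ccl22 the differences were 0.16 ± 0.46 and 0.05 ± 0.48 (adjusted p = 0.88 and 0.98), and for Cd40 0.27 ± 0.16 (adjusted p = 0.33).

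**Figure D5:**
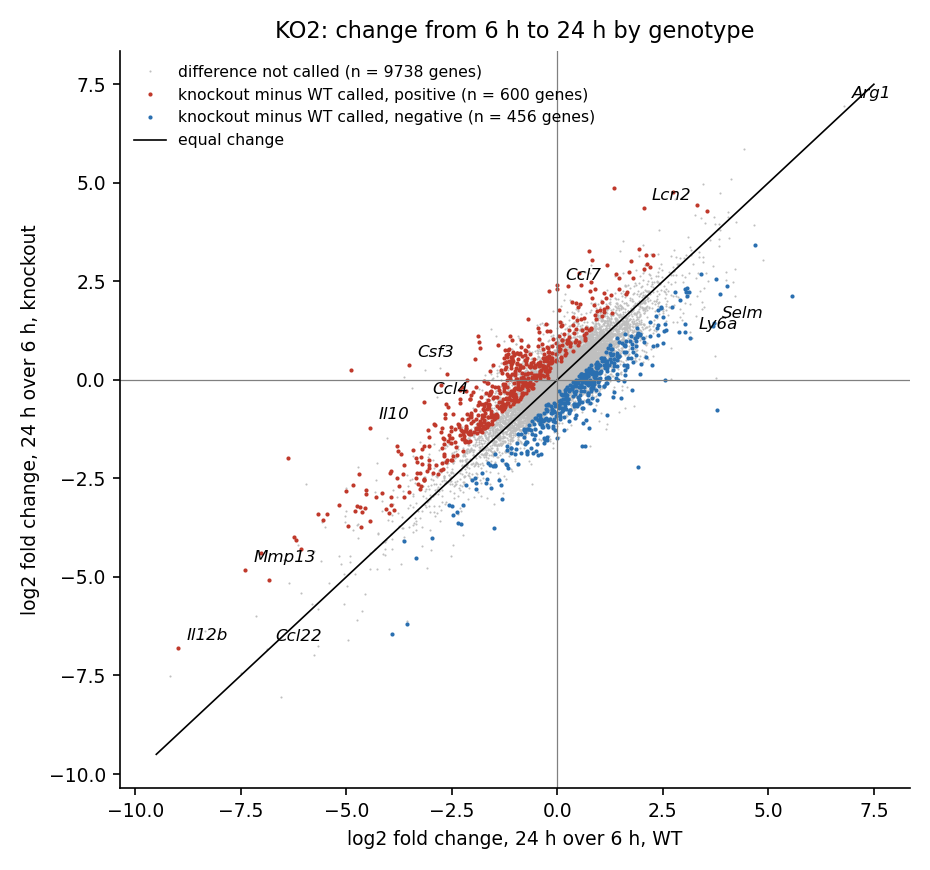
Log2 fold change at 24 h over 6 h of each gene tested in WT (x axis) and knockout (y axis) cells of KO2, with genes whose difference was called in red (600, knockout more positive) or blue (456, more negative), the others in grey, and a line of equal change. Il12b, Il10 and Ccl4 lie above the line among falling genes, Ly6a and Selm below it among rising ones, and Arg1 and Ccl22 near it.

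The same comparison in KO1, with no library in common, had 3 cultures per time and 6580 calls among 13693 genes (48.1%; 26.6% higher and 21.5% lower). Of 10743 genes tested in both cohorts, 2112 were higher in both (69.2% of those higher in KO2 and 60.2% of those in KO1), 1583 were lower in both (54.4% and 67.9%) and 236 were called in opposite directions. In KO1 the log2 fold change was 7.60 ± 0.39 for Arg1, -6.40 ± 0.92 for Il12b, -4.41 ± 0.66 for Il6, -4.39 ± 0.38 for Cd40 and 2.38 ± 0.47 for Lcn2, all called and in the KO2 direction. Ccl2 rose in both (1.41 ± 0.34 in KO1), while Ccl7 was not called in KO1 (0.09 ± 0.41, adjusted p = 0.87) and Ccl12, which rose in KO2, fell in KO1 (-3.08 ± 0.53, adjusted p = 9.5e-05). Siglece and Fpr1, among the highest in KO2, were not called in KO1 (0.14 ± 0.56 and 1.12 ± 0.76, adjusted p = 0.85 and 0.23). Sfpi1 fell in KO2 (-1.04 ± 0.12) and rose in KO1 (1.59 ± 0.23). The count of KO1 calls was 6446 without a 6 h library whose labels conflict. By list, 21 of 25 cytokine genes were lower in KO1 and 1 was higher. Of the 39 type I interferon-stimulated genes, 7 were lower and 2 higher in KO1, against 30 and 1 in KO2. Of 25 NRF2 targets, 19 were higher and 1 lower in KO1, against 9 and 10 in KO2. The difference between the cohorts was not tested.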

How the data were processed

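RNA was sequenced by Smart-Seq2 as paired reads of 38 bases, which carry no strand, per the labels' protocols, so overlapping or antisense genes cannot be told apart. The authors deposited raw counts of reads per gene symbol. TopHat, HTSeq and mm10 are named in the submitters' processing notes, with versions not given in the sources used here.

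Genes passing filterByExpr were fitted with edgeR 4.0.16 (R 4.3.3; TMM, quasi-likelihood) over all 47 KO2 libraries, called at an adjusted p under 0.05. For KO1, counts of the 3 repeats of a culture were summed. No 2 KO2 libraries of a group agreed within sampling noise (161 pairs in 6 groups, smallest chi-square per degree of freedom 3.31). Members and lists were chosen with earlier results of these data known. Named genes were Becn1 and Lyz2, the 12 highest and 12 lowest changes with a mean of at least 8 CPM, up to 3 called genes per list and direction, the cytokines, chemokines and alternative activation markers, 8 at each end of both early sets, and 10 per direction of the genotype difference. Cd74, Cd80, Cd86, Ciita, Csf1r, Emr1, Hspa5, Irf1, Isg15, Nfkbia, Nos2, Plac8, S100a8, Saa3, Slc7a2, Socs1, Socs3, Tlr4, Tnfaip3 and Vcan were named after their values were seen, for their role. Of the list genes, 3 were not in the table and 15 matched by older symbols. On simulated counts in which 200 genes were changed, the 24 h against 6 h test recovered 87% of 2-fold and 97% of 4-fold changes. It called 0.0788% of unchanged genes (10344 genes). In the data 55.5% of genes were called, so these rates may not hold for the comparison itself. Alternatives were DESeq2 1.42.0, its size factors, no filter, only the compared groups, a replicate block, libraries of a group summed into sets by number, no X and Y genes, other definitions of the early response, and single libraries left out. A KO2 group holds at most 1 library per number, so these sets join different numbers, a grouping that the labels do not state. Some genes are not reported here.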

Additional observations from a re-analysis of the deposited data

Results flagged for a closer look

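Among the 168 groups of 8 libraries behind the levels given above, 14 had 1 library far from the others, where chance flags about 1 in 20. Of these, 6 were the 6 h library replicate 7, which also stood apart on the third component. It was the lowest for Nos2 (683 against 2156 CPM in the nearest library) and Mmp13 (1785 against 4876), and the highest for Il10 (61.5 against 39.3), Fpr1 (74.98 against 53.3), Fpr2 (126 against 98.2) and Cxcl11 (249.5 against 191). Replicate 2 at 6 h was the highest for Tnip3 (2086 against 1649), Spp1 (1453 against 1089.7), Psat1 (317 against 233) and P4hb (213 against 153). Replicate 9 was the highest at 6 h for Atg7 (13.5 against 9.18) and Tfeb (4.67 against 2.11), and at 24 h for Hpgds (74.4 against 57.6) and Csf3 (12.4 against 8.44).

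The change from 6 h to 24 h differed between genotypes, by a test of the difference, in 15 of the 18 genes whose difference is given above. Many of these genes were named for that difference, so the count follows from the choice, and over all genes 9.78% differed. As knockout minus WT log2 fold change, the difference was positive for Csf3 (3.90), Il10 (3.23), Ccl4 (2.59), Ccl7 (2.33), Lcn2 (2.32), Il12b (2.18), Il6 (1.996), Il1a (1.92), Serp1 (1.89), Fcgr2b (1.82) and Hpgds (1.501). It was negative for Aif1 (-1.59), Cd74 (-1.74), Ly6a (-2.07) and Selm (-2.33).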

How the results depend on the processing

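The count of genes called between 24 h and 6 h was 5989, and 6061 by DESeq2, 6088 with no filter, 5220 from the compared groups alone and 5835 without X and Y genes. Leaving out each of the 16 libraries in turn gave 5771 to 6013 calls, 877 to 1123 for the difference between genotypes (1056 with all) and, leaving out 1 culture, 4696 to 5739 in KO1 (6580 with all). The share of early rise genes that turned back was 71.0% to 72.7% and of early fall genes 57.4% to 60.2% on leaving out libraries. The early fall share was 39.2% with no filter, 78.4% with only the compared groups and 62.6% when the set was defined in wild-type littermates of the knock-in cohort, and the cause of these shifts was not tested. A 6 h library of these littermates has labels that conflict on the time, and its effect was not tested. No other alternative moved a count or share by over 1.5 times. Of 190 genes followed over 24 alternatives, none changed direction while called, and Cxcl10 and Cxcl5 lost their call in at least 1 (Cxcl10 -0.38, adjusted p = 0.13, with libraries of a group summed into sets by number). Leaving out replicate 7 at 6 h and replicate 4 at 24 h together was chosen after seeing the data.

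With the number in the titles as a replicate block, 5950 genes were called between 24 h and 6 h, 6254 between 24 h and 0 h, 7652 in WT between 6 h and 0 h and 1014 for the difference. Same-numbered libraries correlated at -0.08 to 0.07 in their deviations, 2 of 8 best with their own number, so the numbers were not taken to pair the libraries. In KO1 the block by culture gave 6897 calls, with correlations of 0.0970 to 0.239 and 3 of 3 best with their own number. The depth of 1448218 counts in the shallowest library limits what genes of few counts can show.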
